A study of Homo sapiens with 2 samples.

Results

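The miRNAs described here are those made from 6 hairpins that lie inside the HOX gene clusters: hsa-mir-10a, hsa-mir-10b, hsa-mir-196a-1, hsa-mir-196a-2, hsa-mir-196b and hsa-mir-615. They were chosen by hairpin name, with both arms kept. This gave 11 of the 1546 rows of the deposited table and 10 of its 1497 mature miRNA names. The arm hsa-miR-196a-1-3p had no row and got no value. The samples were 2 small RNA libraries of A375 cells, an established human melanoma line, grown for 24 h, exposed to the solvent DMSO for 48 h and then harvested. The labels call them independent replicates and name no other treatment, genotype or second cell line. They form 1 group, so no condition was compared. Nothing says whether they came from separate cultures, and their spread may be technical in part. The series as a whole asks which miRNAs regulate the BRAF-X1 transcript. Values are RPM, reads per 1000000 read assignments, and a mean is given ± SD over the 2 libraries.

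HOX genes encode transcription factors that set position along the body axis, and in mammals they sit in 4 clusters in which gene order follows the order of expression along that axis. MiRNAs of the miR-10 and miR-196 families are embedded among these genes, are often expressed with their HOX neighbours, and repress HOX messenger RNAs. MiR-196 directs cleavage of HOXB8 mRNA through a nearly complete match. MiR-10b is known for a role in tumour invasion, and reduced miR-196a has been described in melanoma. MiR-615 is a mammalian miRNA from an intron of HOXC5. A hairpin yields a 5p and a 3p arm, one of which usually accumulates as the guide while the other, the passenger, is mostly degraded.

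The mature sequences are shown first because the seed, bases 2 to 8, sets which messenger RNAs a miRNA can pair with. Of the 10 names, 9 matched a RefSeq entry (GRCh38.p14), all but miR-10b-5p. Capitals mark the seed, and the more abundant arms come first. Names are given here without their prefix, so hsa-miR-10a-5p is miR-10a-5p, and likewise for hsa-miR-10b-5p, hsa-miR-196a-5p, hsa-miR-196b-5p and hsa-miR-615-3p.
miR-10a-5p: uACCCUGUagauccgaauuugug
miR-196a-5p: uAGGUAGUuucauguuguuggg
miR-196b-5p: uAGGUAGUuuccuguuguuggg
miR-615-3p: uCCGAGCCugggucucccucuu
miR-196a-3p: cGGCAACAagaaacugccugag
miR-10a-3p: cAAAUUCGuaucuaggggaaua
miR-10b-3p: aCAGAUUCgauucuaggggaau
miR-196b-3p: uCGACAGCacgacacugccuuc
miR-615-5p: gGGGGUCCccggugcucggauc
MiR-196a-5p and miR-196b-5p share the seed AGGUAGU. They are identical at 21 of 22 positions and differ by A12C, counted from the 5′ end with miR-196a-5p as the starting sequence. Among the 2370 human mature names with a sequence in the RefSeq table, these 2 were the only ones with that seed. No other name in that table carried the seed of miR-615-3p.

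The libraries held 10816826 read assignments in replicate 1 and 15428446 in replicate 2, and 1 read equalled 0.0924 and 0.0648 RPM. Of 6 miRNAs listed for the melanocyte lineage, 5 reached 10 RPM in each library, led by miR-204-5p at 2632 ± 190 RPM, while miR-211-5p had 0.277 RPM in replicate 1 and 0.130 RPM in replicate 2. Of 15 miRNAs listed for blood, epithelium, neurons, liver and muscle, 10 had a row and 2 reached that level: miR-128-3p at 895 ± 28.9 RPM and miR-141-3p at 19.4 ± 5.36 RPM. Over all 1497 mature names, 335 (22.4%) reached 10 RPM in each library. The 2 of 10 listed names with a row lie near that share.

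In the GRCh38 annotation of GENCODE 29, the 6 hairpins lay on the strand of their HOX neighbours in all 4 clusters. The build behind the deposited values is not given in the sources used here. MIR10A (chromosome 17, 48579838 to 48579947, minus strand) overlapped an exon of 1 HOXB4 transcript and introns of HOXB3. MIR10B (chromosome 2, 176150303 to 176150412, plus strand) lay in an intron of HOXD3, 0.81 kb from HOXD4. The miR-10 genes sat beside paralogue 4 of their clusters, and the miR-196 genes farther along, beside paralogues 9 and 10. MIR196B (chromosome 7, 27169480 to 27169563, minus strand) overlapped HOXA9, in an exon of 1 transcript and introns of 2 others, 1.03 kb from HOXA10. MIR196A2 (chromosome 12, 53991738 to 53991847, plus strand) lay in a HOXC6 intron, 1.46 kb from HOXC10 and 3.05 kb from HOXC9. MIR196A1 (chromosome 17, 48632490 to 48632559, minus strand) lay in a HOXB7 intron, 6.13 kb from HOXB9. MIR615 (chromosome 12, 54033950 to 54034045, plus strand) lay in introns of HOXC5 and HOXC4.

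**Figure D1:**
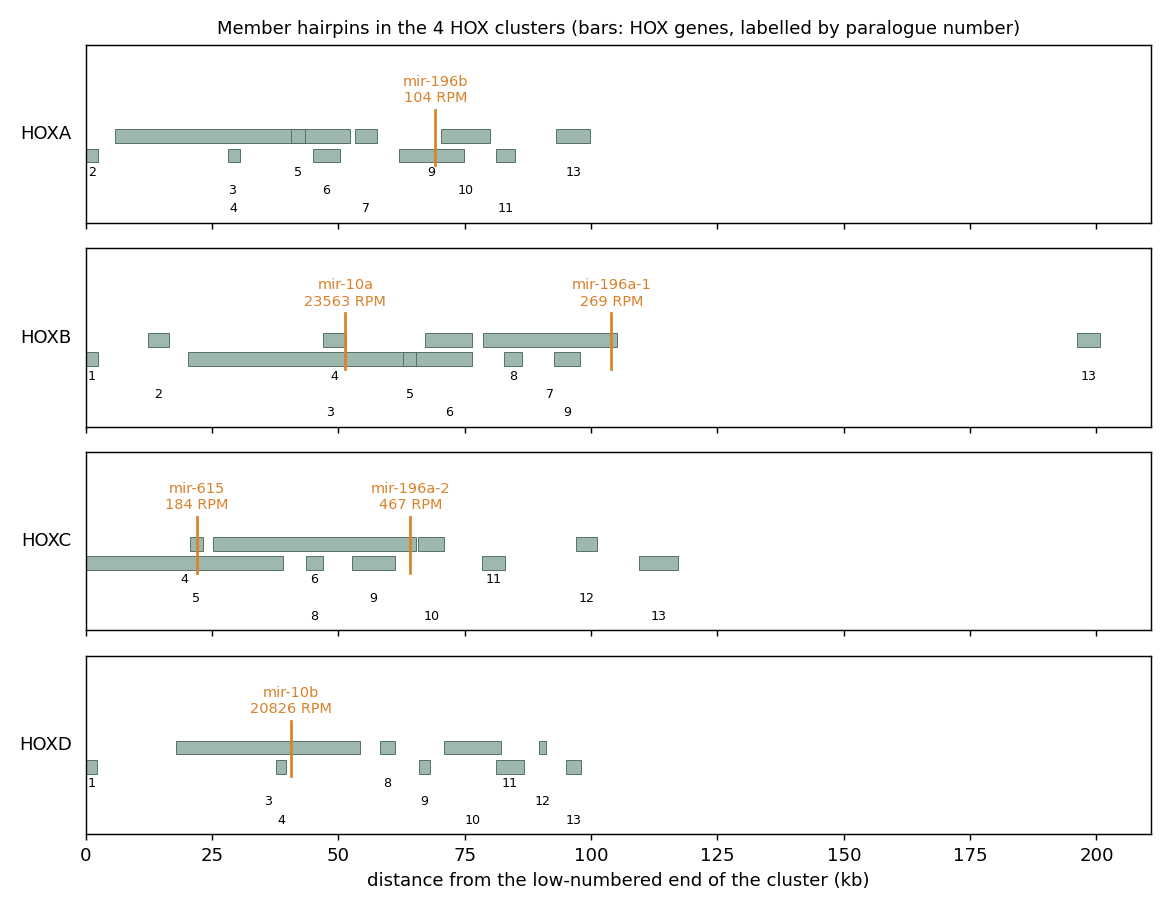
The 4 HOX clusters drawn to scale in kb from the end with the lowest paralogue number shown. Bars are HOX genes, with the paralogue number below them, and lines mark the member hairpins with their summed mean RPM over both arms. The hairpins mir-10a and mir-10b stand at 23563 and 20826 RPM, and the others, mir-615 in HOXC4 and HOXC5 included, between 104 and 467 RPM. The values of mir-196a-1 and mir-196a-2 may include reads given to both, since the assignment rules are not known.

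The miR-10 leading arms made up nearly all of the HOX cluster signal. MiR-10a-5p had 22335 RPM in replicate 1 and 24738 RPM in replicate 2, from 241590 and 381670 reads. MiR-10b-5p had 19897 RPM and 21740 RPM in the same libraries. They were number 10 and number 11 among all mature names in replicate 1, and number 8 and number 10 in replicate 2. Both were somewhat higher in replicate 2, and in each library miR-10a-5p stood above miR-10b-5p. Together they held 98.2% ± 0.0855 of the RPM of all 10 members (SD, n = 2).

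The members as a group held 5.79% ± 0.350 of the pool, after names with several hairpins were reduced to their highest copy. The share was 5.55% in replicate 1 and 6.04% in replicate 2. Without miR-10a-5p and miR-10b-5p the other 8 members held 0.101% ± 0.00117. The rows of the HOXB hairpins summed to 23832 ± 1685 RPM, those of HOXD to 20827 ± 1305 RPM, those of HOXC to 651 ± 20.1 RPM and those of HOXA to 104 ± 8.42 RPM. The HOXB and HOXC sums each hold a miR-196a-5p row, of 269 and 366 RPM. Any reads given to both hairpins would count in each sum and cannot be divided between these clusters. How reads that match both miR-196a-5p and miR-196b-5p with a mismatch were assigned is not known either, which also limits the HOXA sum. Within HOXB, mir-10a and mir-196a-1 lie 52.6 kb apart and their rows summed to 23563 RPM for mir-10a and 269 RPM for mir-196a-1.

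The miR-196 arms formed a second, much lower tier with miR-615-3p. MiR-196a-5p had 375.2 RPM in replicate 1 and 357 RPM in replicate 2 (4058 and 5512 reads), a small spread. MiR-196b-5p, made from the HOXA cluster, had 108 RPM and 94.8 RPM. MiR-615-3p had 147 RPM and 211 RPM, the widest relative spread among the 5 leading arms (coefficient of variation 25.4%). MiR-196a-3p, the passenger of mir-196a-2, had 110 RPM and 92.0 RPM, a level like that of the leading arm miR-196b-5p. MiR-196a-5p was number 103 by mean among all names, miR-615-3p number 135, miR-196b-5p number 169 and miR-196a-3p number 171.

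The other passenger arms were lower still. MiR-10a-3p had 26.3 RPM and 27.3 RPM, from 284 and 421 reads. MiR-10b-3p had 6.84 RPM and 9.40 RPM, from 74 and 145 reads. MiR-615-5p had 5.18 RPM and 5.25 RPM, from 56 and 81 reads. MiR-196b-3p was the lowest member, with 12 reads in replicate 1 (1.11 RPM, exact Clopper-Pearson 95% interval 0.573 to 1.94) and 42 reads in replicate 2 (2.72 RPM, 1.96 to 3.68). Its 2 intervals did not overlap, and they cover counting error only.

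**Figure D2:**
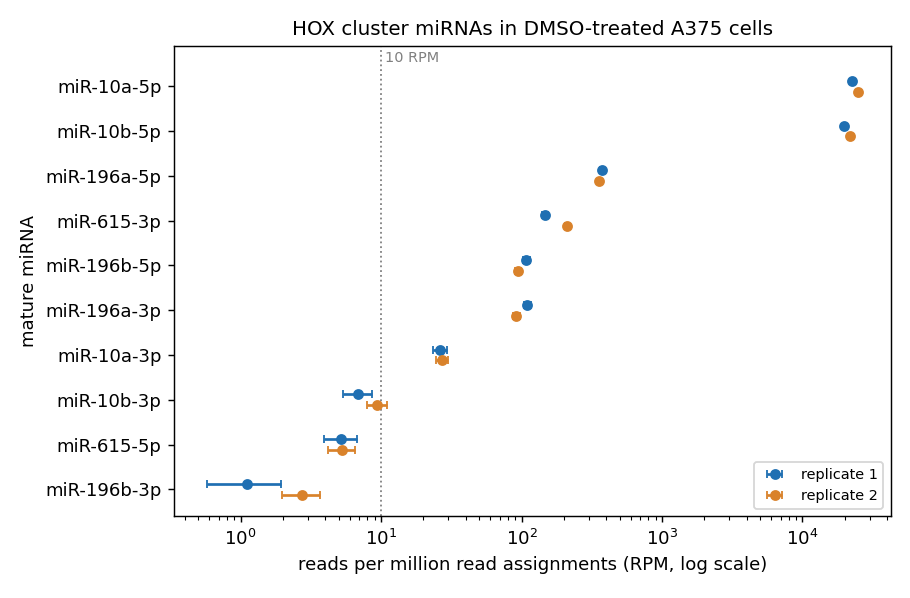
RPM of the 10 members on a log axis, with 1 point per library and exact 95% intervals for counting error. MiR-10a-5p and miR-10b-5p sit at 19897 RPM or more in both libraries, 4 members lie between 92.0 and 375.2 RPM, and 3 passenger arms lie below the dotted line at 10 RPM.

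With a minimum of 10 RPM in each library, 7 of the 10 members counted as expressed, against 335 of all 1497 names (22.4%). All 10 members reached 1 RPM, against 39.6% of names, and 4 reached 100 RPM, against 10.8%. The median level was 101 RPM over the members and 0.588 RPM over all names. In the order by mean, 8 of the 9 neighbouring pairs kept their order in both libraries. The exception was miR-196b-5p and miR-196a-3p, with means of 102 ± 9.56 and 101 ± 12.6 RPM, whose order turned round in replicate 1. The ranges of mean ± SD also overlapped for miR-10a-5p and miR-10b-5p, although miR-10a-5p was higher in both libraries. The step from miR-10b-5p to miR-196a-5p was 56.8-fold, the widest in the order.

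Paralogue ratios were compared within each library, which removes the library's scale. On the log2(RPM + 1) scale, miR-10a-5p exceeded miR-10b-5p by 0.17 in replicate 1 and 0.19 in replicate 2, or 1.12-fold and 1.14-fold. The passenger arms of the same hairpins were farther apart. MiR-10a-3p exceeded miR-10b-3p 3.84-fold in replicate 1 and 2.90-fold in replicate 2. On the log2(RPM + 1) scale the 2 miR-10 hairpins differed by 1.62 ± 0.25 by the 3p arms and 0.18 ± 0.01 by the 5p arms. The added 1 RPM makes the 3p value smaller than the folds in RPM alone would give. How reads that match both 5p arms with a mismatch were assigned is not given in the sources used here, and its part in the near-equal 5p levels was not tested.

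MiR-196a-5p exceeded miR-196b-5p by 1.78 and 1.90 (log2), or 3.46-fold and 3.77-fold. Their passengers were farther apart, with miR-196a-3p at 110 and 92.0 RPM and miR-196b-3p at 1.11 and 2.72 RPM. MiR-196a-5p and miR-196b-5p are identical at 21 of 22 positions. How reads that match both with a mismatch were assigned is not given in the sources used here. The part of such reads in these levels was not tested. MiR-196a-5p was taken at its higher row, mir-196a-2. The mir-196a-1 row, at 280 and 258 RPM, was not added, and ratios with both rows added were not computed. The miR-10 pair summed to 44355 ± 3003 RPM and the miR-196 pair, with that same row, to 468 ± 22.2 RPM. The pairs were 87.3-fold apart in replicate 1 and 103-fold apart in replicate 2. Each of the 4 differences given as folds had the same sign in both libraries. With 2 libraries no permutation test can reach a small p, so they are given without one.

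MiR-196a-5p can come from either of 2 hairpins, and the deposited rows were unequal. The mir-196a-1 row had 280 RPM in replicate 1 and 258 RPM in replicate 2, and the mir-196a-2 row 375.2 and 357 RPM. The lower row was 74.5% and 72.3% of the higher one. It held 1034 and 1525 fewer read assignments. The 22 bases of the mature form are the same in both hairpins, and the first base that follows them differs. They are shown here with 4 flanking bases on each side, the mature part in capitals (RefSeq, GRCh38.p14):
MIR196A1 (chr17:48632528-48632557, minus strand): gaauUAGGUAGUUUCAUGUUGUUGGGccug
MIR196A2 (chr12:53991758-53991787, plus strand): ggcuUAGGUAGUUUCAUGUUGUUGGGauug
A read that runs past the mature end could tell the hairpins apart, but read ends are not in the table. The gap between the rows is a net difference. It does not divide any shared reads between HOXB and HOXC.

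Unequal rows were uncommon among such miRNAs. Another 33 names with several hairpins reached a mean of 10 RPM. Over all 34, the lowest row divided by the highest had a median of 0.985, and in 27 it was at least 0.9. Only 3 had a lower ratio than miR-196a-5p: miR-548f-3p, miR-548x-3p and miR-320c, named after their values were seen. The passenger arm miR-196a-3p belongs to mir-196a-2 alone.

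**Figure D3:**
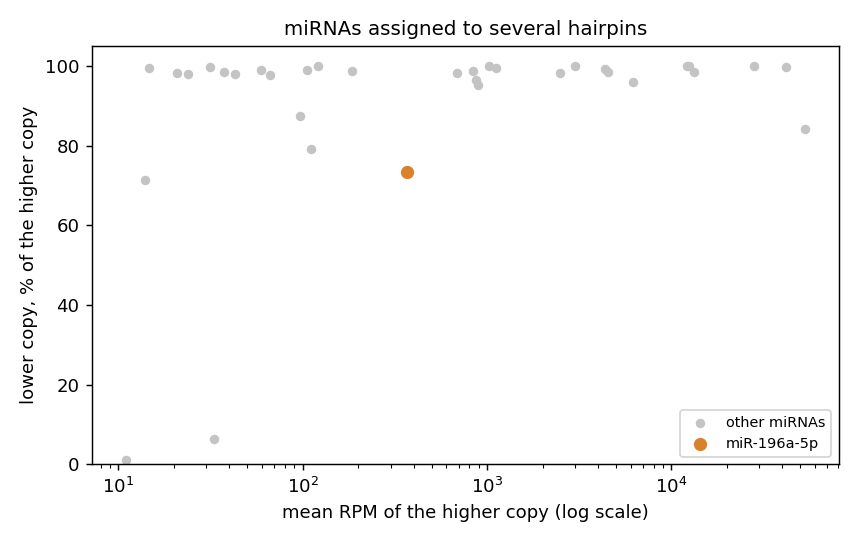
Each point is a miRNA with several hairpins and a mean of 10 RPM or more: the horizontal axis is the mean RPM of its highest copy (log scale) and the vertical axis the lowest copy as a percentage of the highest. MiR-196a-5p lies at 73.5%, below most others, which lie at 90% or more.

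Arm preference differed widely among the HOX cluster hairpins. Over the 5 hairpins with both arms listed, the 5p arm led by over 2-fold in each library in 4, and the 3p arm in 1. Among 137 hairpins of the table whose arms summed to at least 100 RPM, these shares were 58.4% for 5p and 34.3% for 3p. The log2 ratio of 5p over 3p was 11.17 ± 0.20 for mir-10b and 9.73 ± 0.07 for mir-10a. These were among the most one-sided: 132 and 125 of the 137 hairpins had a smaller absolute ratio. In this background a name with several hairpins enters under each of them at its highest copy. This can widen the ratio of such a hairpin, and it repeats some ratios. For mir-10a the passenger was 0.117% and 0.110% of both arms, and for mir-10b 0.0344% and 0.0432%.

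The miR-196 hairpins split. The mir-196b ratio was 5.19 ± 0.71, close to the median absolute ratio of 5.55 over the 137 hairpins. The mir-196a-2 ratio was 1.85 ± 0.13, and 18 of 137 hairpins were more balanced. MiR-196a-3p thus made up 22.6% and 20.5% of the RPM of both arms. Since some miR-196a-5p reads may come from mir-196a-1, these percentages are lower bounds for mir-196a-2 if every miR-196a-3p read came from it. The mir-615 ratio was -4.83 ± 0.36, with the 3p arm 28.3-fold and 40.1-fold higher.

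**Figure D4:**
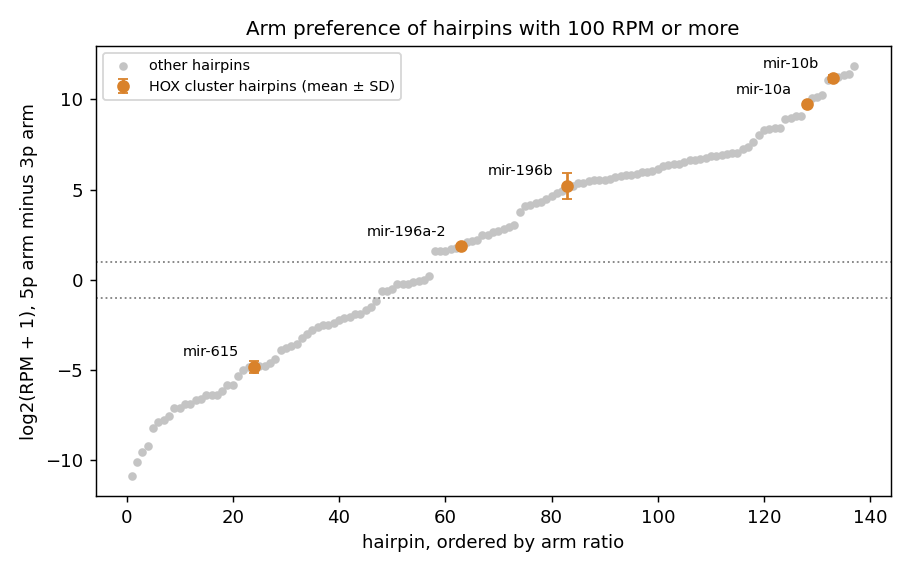
The log2 ratio of 5p over 3p arm for 137 hairpins, ordered by that ratio, with the 5 HOX cluster hairpins in orange as mean ± SD of 2 libraries. Dotted lines mark 2-fold; mir-10a and mir-10b lie near the 5p end, mir-196a-2 close above the upper line and mir-615 on the 3p side at -4.83.

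The first base of a miRNA is known to help place it in Argonaute, which favours U. All 4 leading arms with a sequence began with U. Of the 5 passengers, miR-196b-3p began with U, 2 others with C, 1 with A and 1 with G. Over the 137 hairpins, 82 of 127 higher arms with a sequence began with U (64.6%), and 24 of 124 lower arms (19.4%). MiR-615-5p and miR-615-3p were GC-rich, at 77.3% and 63.6% G or C, while miR-10a-5p stood at 43.5% and miR-196a-5p at 40.9%. The median over 300 expressed names with a sequence was 50.0%.

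The libraries were compared as the only measure of error. Among 346 names with a mean of 10 RPM or more, 6 (1.73%) differed by over 2-fold on the log2(RPM + 1) scale, and none of the 7 members tested did. The median absolute difference was 0.15 over the 7 members and 0.25 over all 346. MiR-615-3p moved most, at -0.52 (replicate 1 minus replicate 2), and 87.6% of the 346 names had a smaller absolute difference. MiR-10a-5p and miR-10b-5p stood at -0.15 and -0.13. MiR-196a-3p and miR-196b-5p leaned the other way, at 0.25 and 0.19. The median over all 346 names was 0.10, and with libraries scaled to a median ratio of 1 the miR-196a-5p difference changed sign, to -0.03 after scaling, against 0.07 as deposited.

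Fisher's exact test (two-sided) on recovered reads, which compares these libraries and not conditions, called 1 of the 10 members at an adjusted p under 0.05 and a fold above 2. This was miR-196b-3p, 2.38-fold lower in replicate 1 with an adjusted p of 0.0178 by Fisher's exact test, on 12 and 42 reads. Folds given with this test add a fraction of a read to each count. Without that addition the RPM of miR-196b-3p differed 2.45-fold. Over the table, 40 of 869 names (4.6%) were called. At the adjusted p alone, 6 of the 10 members passed, against 34.5% of names. MiR-615-3p had an adjusted p of 1.7e-32 by Fisher's exact test at a fold of 1.44, and its higher replicate was replicate 2. At this depth a fold as small as 1.09 passed, that of miR-10b-5p, with an adjusted p of 1.9e-230 by Fisher's exact test.

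**Figure D5:**
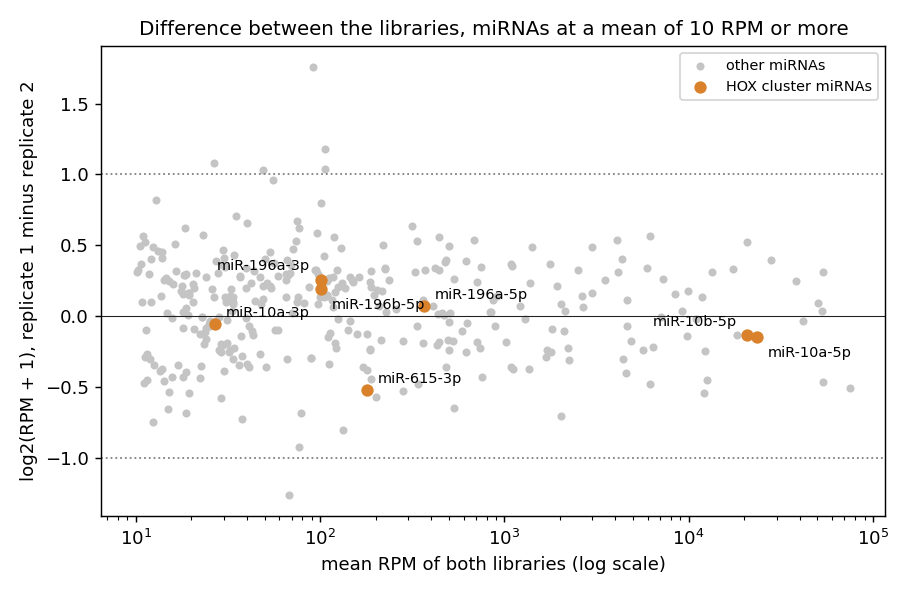
Log2(RPM + 1) of replicate 1 minus replicate 2 against mean RPM (log scale) for 346 miRNAs, with the 7 members at 10 RPM or more in orange. The members lie between -0.52 for miR-615-3p and 0.25 for miR-196a-3p, inside the dotted lines at 2-fold.

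By levels in the 2 libraries, the names nearest to miR-10a-5p were miR-10b-5p and miR-181a-5p, and those nearest to miR-10b-5p were miR-10a-5p and miR-92b-3p. MiR-196a-5p lay nearest to miR-19a-3p and miR-17-3p, with distances of 0.03 and 0.05 in log2(RPM + 1). MiR-615-3p lay nearest to miR-1260b and miR-361-5p, and miR-196b-5p to miR-196a-3p and miR-143-3p. MiR-196a-3p lay nearest to miR-196b-5p and miR-331-3p, and miR-10a-3p to miR-374b-3p and miR-126-3p. With 2 libraries this likeness is one of level.

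The families were set beside relatives by sequence that lie outside the HOX clusters. The miR-10 pair summed to 44355 ± 3003 RPM and its 5 listed relatives, miR-99a, miR-99b, miR-100, miR-125a and miR-125b (5p arms), to 97916 ± 22928 RPM, most of it miR-100-5p at 74782 ± 18188 RPM. All 5 relatives counted as expressed, with a median of 6374 RPM. The seed of miR-10a-5p (ACCCUGU) begins with the same 4 bases as that of miR-100-5p, shown here to compare them:
miR-100-5p: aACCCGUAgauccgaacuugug
The miR-196 pair summed to 468 ± 22.2 RPM, against 72279 ± 3293 RPM for 9 listed let-7 family members. All 9 were at 10 RPM or more, with a median of 2686 RPM. Bases 2 to 7 of miR-196a-5p, AGGUAG, recur in the listed let-7 members from base 3 on:
let-7a-5p: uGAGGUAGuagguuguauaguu
The overlap is shifted by 1 base, so the seeds are different words.

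HOX messenger RNAs were not analysed here, but the annotation shows where the members could pair. In the longest 3′ UTR of each of 19127 protein-coding genes (GENCODE 29, transcript strand only), the seed match of miR-196a-5p (ACTACCT) was found in 8 of 38 HOX genes (21.1%) and in 7.15% of all genes. The HOX genes were HOXA5, HOXA7, HOXA9, HOXB1, HOXB13, HOXB6, HOXB7 and HOXC8. The match of miR-10a-5p (ACAGGGT) was found in 2 of 38 (5.26%), HOXA3 and HOXB3, and in 12.8% of all genes. The match of miR-615-3p (GGCTCGG) was found in 2 of 38 (5.26%), HOXB4 and HOXC6, and in 2.86% of all genes. Median 3′ UTR length was 863.5 bases over these HOX genes and 1102 over all. A match is a description of letters and not evidence of binding.

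The best ungapped pairing of miR-196a-5p in these HOX 3′ UTRs was in HOXB8, the known cleavage target. All 22 positions paired there, 21 by Watson-Crick pairs and 1 by G and U. That window holds ACTGCCT opposite the seed, so the search for ACTACCT did not list it. It is shown with seed matches in HOXC8 and HOXA7 and with the window in BRAF, the gene the series is about, to set the fully paired window beside windows paired in part. Capitals face seed bases 2 to 8, and each position is that of the first capital, counted from the first base of the 3′ UTR:
HOXB8-201, capitals from 425: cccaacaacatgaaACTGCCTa
HOXC8-201, capitals from 864: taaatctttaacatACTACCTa
HOXA7-201, capitals from 472: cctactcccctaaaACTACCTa
BRAF-204, capitals from 3411: gacctctacaaaaaACTACCTc
The HOXC8 and HOXA7 windows had 12 and 15 Watson-Crick pairs, with 2 pairs of G and U in each. The BRAF window had 14 Watson-Crick pairs and 0 of G and U. Further matches in HOXA7 had 12, 14 and 10 Watson-Crick pairs, so the HOXA7 window shown is its highest. HOXC8 held another match, also with 12. The longest annotated BRAF 3′ UTR, 7167 bases in BRAF-204, held that 1 match of miR-196a-5p and none of miR-10a-5p or miR-615-3p. Among 616 genes with a 3′ UTR within 20% of that length, 24.7% held the miR-196a-5p match, 44.8% that of miR-10a-5p and 7.14% that of miR-615-3p.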

How the data were processed

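Small RNA from 2 A375 libraries was sequenced. Reads went through CASAVA 1.8, with cutadapt 1.2.1 also listed, per the submitters' processing notes. The aligner, miRNA annotation and read assignment rules were not given in the sources used here. The deposited values are RPM by the authors, with decimal commas, 1 per hairpin and mature name, and each column sums to 1000000. Every value was a whole multiple of the smallest (100% within 0.01 reads), so reads were recovered. Adapter ligation favours some sequences, so levels of different miRNAs are not molar ratios. Names with several hairpins were reduced to their highest copy, which kept 77.6% and 78.3% of the totals. This takes the copies to share their reads, which the sources used here do not state. Logarithms used a pseudocount of 1 RPM, which understates differences of low miRNAs. Fisher's exact test on names with at least 10 reads in sum used Benjamini-Hochberg adjustment over these 869 names. It was tried on simulated data with counting error and set changes only, so that trial does not cover other variation between libraries. Intervals cover counting error only, since PCR reads are not independent molecules. The named miRNAs were the members, the 2 nearest names of each expressed member and short lists. A HOX gene is not reported here. Members and lists were chosen with earlier results of these data known. Tools were Python 3.11.15, pandas 2.3.3 and scipy 1.17.1.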

Additional observations from a re-analysis of the deposited data

How the results depend on the processing

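With 2 libraries, leaving out either one gives the value of the other, so it is no check of stability. MiR-196b-3p moved by the largest factor among the member levels, to 2.72 RPM without replicate 1 and 1.11 RPM without replicate 2, against a mean of 1.92. Without replicate 2 the order of miR-196b-5p and miR-196a-3p turned round. Scaling by the median ratio moved each member level by less than its SD. It lowered replicate 1 and raised replicate 2, so a mean over both could move little. The spread moved more: the SD of miR-10a-5p rose from 1699 to 2896 RPM, and that of miR-196a-5p fell from 12.7 to 5.94 RPM. The miR-10a-5p library difference went from -0.15 to -0.25. The members' share was 4.54% with copies summed and 6.41% without the most abundant miRNA. At a minimum of 100 RPM, 4 of the 10 members counted as expressed, against 10.8% of all names, and at 1 RPM all 10, against 39.6%. A pseudocount of 10 RPM lowered the log2 ratio of miR-10a-3p over miR-10b-3p to 1.02 and that of miR-196a-5p over miR-196b-5p to 1.76. It gave arm ratios of 9.32 for mir-10a, 10.17 for mir-10b, 3.23 for mir-196b and -3.61 for mir-615. With copies summed the mir-196a-2 arm ratio was 2.65, since the reads of both rows were added. The number of names differing by over 2-fold between the libraries was 6 of 346. It was 3 of 346 with a pseudocount of 10 RPM and 4 of 346 under scaling by the median ratio. Without a filter on low values it was 13 of 1497. Fisher's exact test on reads, with an adjusted p under 0.05 also required, called 40 of 869. No paralogue ratio or arm ratio changed sign, but none of the alternatives computed for them could have reversed one, so this is no check. The library difference of miR-196a-5p changed sign, to -0.03 under scaling by the median ratio, against 0.07 as deposited. No paired analysis was possible because the libraries form 1 group. Depth limits miR-196b-3p, which rests on 12 and 42 reads.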

Other observations

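The GENCODE 29 annotation placed 8 miRNA genes between the outermost HOX genes considered in the 4 clusters, of which 6 were the hairpins described above. The others, MIR7704 in the HOXD cluster and MIR3185 in the HOXB cluster, were looked up after the data were seen. MiR-7704 had 6.93 RPM in replicate 1 and 6.22 RPM in replicate 2, from 75 and 96 reads, a level that by mean lies between those of miR-10b-3p and miR-615-5p. It is encoded on the plus strand of chromosome 2 from 176188843 to 176188901. No row of the table carried mir-3185.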
